A study of Mus musculus with 4 samples.

Results

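The nuclei described here were progenitor-type nuclei of mouse fat in which genes of a matrix-rich state were detected, led by Smoc2 and Lum. A nucleus entered the set by its own transcripts. It needed at least 300 genes and under 10% of its unique molecular identifiers (UMIs, 1 per captured RNA molecule) from mitochondrially encoded genes. It needed UMIs of at least 3 of the 7 progenitor genes Pdgfra, Dcn, Lama2, Fbn1, Col1a2, Col3a1 and Abca8a, and no UMI of Wt1. Last, it needed at least 2 of the 6 genes Smoc2, Lum, Pde11a, Shisa6, Ntf3 and Fap, called the matrix set here, and more of these than of the 7 early-set genes Pi16, Dpp4, Sema3e, Fndc1, Gfpt2, Scara5 and Opcml. This gave 1899 of the 36690 nuclei that passed the filters, and 1899 of the 6178 progenitor-gate nuclei without Wt1. The detection of these genes chose the nuclei, so their levels are a description and support nothing.

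The study placed mice on a high-fat diet and compared a surgery group, bariatric according to the title of the series, with a sham-operated group. It had 1 library for each of BAT surgery, BAT sham, BeAT surgery and BeAT sham, where BAT is tissue labelled brown and BeAT tissue labelled beige adipose tissue. Every group, sham included, was on the high-fat diet. The labels used here do not give the strain, sex, age or number of animals. The molecule is labelled nuclear RNA, while the protocol describes digested tissue and viable cells. With no replicates, differences were not tested, and every interval (95%) covers counting error only.

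The tissue labels were checked against defining genes. Ucp1, which uncouples respiration in thermogenic fat cells, had 0 and 2 UMIs in adipocyte-marker nuclei of BAT surgery and BAT sham, and 0 and 4 in those of BeAT surgery and BeAT sham. Zic1, a gene of classical brown fat, had 0 and 3 UMIs among all kept nuclei of BAT surgery and BAT sham. In kept nuclei Ucp1 had 28 and 3 UMIs in BAT surgery and BAT sham, and 1 and 6 in BeAT surgery and BeAT sham. With so few UMIs, Ucp1 and Zic1 did not bear out the brown label. Cidea, also checked as a brown fat gene, had 31 and 1003 UMIs in kept nuclei of BAT surgery and BAT sham. In BeAT surgery and BeAT sham it had 218 and 1806, so it was not higher under the brown label. Gpx5, a secreted product of epididymal epithelium, had 269173 UMIs in kept nuclei of the library labelled BAT surgery and 0 in each of the other 3 libraries. Wt1, a transcription factor of mesothelium and gonadal fat, had 919 UMIs there, 3 in BAT sham, 24 in BeAT surgery and 0 in BeAT sham. The names below are therefore those of the labels, and BAT surgery stands for the library so labelled.

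The members numbered 95 in BAT surgery, 931 in BAT sham, 77 in BeAT surgery and 796 in BeAT sham. They carried 644589 UMIs in BAT surgery, 4507259 in BAT sham, 473150 in BeAT surgery and 3175715 in BeAT sham, so the surgery libraries set the precision of every comparison. Median UMIs per member were 4546 in BAT surgery, 4203 in BAT sham, 5294 in BeAT surgery and 3120 in BeAT sham. Pairs of libraries shared 36 to 73 cell barcodes, and no shared barcode was a member in both libraries. A further 58 nuclei of BAT surgery met every criterion except the absence of Wt1.

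Adipose stroma holds Pdgfra-positive fibroblastic progenitors that build the matrix around fat cells and can themselves become adipocytes. Work in mice has separated a Pi16 and Dpp4 state, found in the fascia-like interstitium and regarded as early, from states closer to adipocytes that carry more matrix and adipogenic transcripts. Smoc2 is a secreted calcium-binding matricellular protein, and lumican, made by Lum, is a small leucine-rich proteoglycan that binds collagen fibrils. Pde11a hydrolyses cAMP and cGMP, Shisa6 is a transmembrane partner of glutamate receptors in neurons, Ntf3 is a neurotrophin, and Fap is a membrane serine protease of fibroblasts. Col6a3, the marker of the state that the rule did not use, encodes a chain of the microfibrillar collagen VI.

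Promoters are printed for Pde11a, Col6a3 and Pi16. Pde11a is a gene of the matrix set and Pi16 the leading gene of the early set. The rule itself used them to divide the 2 kinds of progenitor nuclei. Col6a3 is the marker left out of the rule. The sequences are RefSeq's on GRCm38.p6, the mm10 assembly, from 250 bases before to 50 bases after the annotated start, 5′ to 3′ on the gene's strand. RefSeq entries matched 2 of the 6 matrix-set genes and 6 of the 7 early-set genes. The Pde11a window was chr2:76338889-76339188 on the minus strand, the Col6a3 window chr1:90843922-90844221 on the minus strand and the Pi16 window chr17:29318632-29318931 on the plus strand. Capitals mark motifs searched on both strands, which were the TATA box TATAAA, the CCAAT box CCAAT, the AP-1 site TGANTCA, the TEAD site GGAATG and the GC box GGGCGG.
Pde11a: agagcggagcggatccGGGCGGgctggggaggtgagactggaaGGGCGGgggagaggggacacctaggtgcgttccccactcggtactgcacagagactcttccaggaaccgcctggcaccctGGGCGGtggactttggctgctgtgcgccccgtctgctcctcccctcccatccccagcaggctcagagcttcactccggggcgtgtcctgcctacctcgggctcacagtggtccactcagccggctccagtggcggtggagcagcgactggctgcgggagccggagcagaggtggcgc
Col6a3: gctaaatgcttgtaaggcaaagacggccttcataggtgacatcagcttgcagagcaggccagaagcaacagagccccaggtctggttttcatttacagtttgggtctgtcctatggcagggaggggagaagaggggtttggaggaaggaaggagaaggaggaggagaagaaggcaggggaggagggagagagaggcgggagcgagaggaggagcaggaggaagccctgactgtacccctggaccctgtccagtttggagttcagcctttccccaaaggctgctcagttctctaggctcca
Pi16: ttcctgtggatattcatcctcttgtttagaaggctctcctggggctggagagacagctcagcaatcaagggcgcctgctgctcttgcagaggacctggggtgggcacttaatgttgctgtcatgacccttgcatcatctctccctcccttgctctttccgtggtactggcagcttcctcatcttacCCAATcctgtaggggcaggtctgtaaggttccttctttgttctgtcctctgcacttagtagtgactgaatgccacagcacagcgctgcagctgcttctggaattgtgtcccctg
The Pde11a window held 3 GC boxes, the Pi16 window 1 CCAAT box and the Col6a3 window none of the 5 motifs. Over all 32851 promoter windows, 35.7% held the GC box, 37.4% the CCAAT box, 13.6% the TATA box, 14.7% the TEAD site and 7.81% the AP-1 site. A match describes letters in the window and shows no binding.

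Among the rule's own genes, Smoc2 (chromosome 17, 14279506 to 14404790, plus strand, GENCODE M21 on mm10) had 234 and 627 CPM (UMIs scaled to the total of the members) in BAT surgery and BAT sham, and 232 and 575 CPM in BeAT surgery and BeAT sham. Lum (chromosome 10, 97565128 to 97572703, plus strand) had 126 and 491 CPM in BAT surgery and BAT sham, and 76.1 and 526 CPM in BeAT surgery and BeAT sham. Both matrix protein genes were lower in the surgery members of each tissue label. Pde11a (chromosome 2, 75989141 to 76338774, minus strand) had 617 and 941 CPM in BAT surgery and BAT sham, and 1198 and 680.5 CPM in BeAT surgery and BeAT sham. Fap (chromosome 2, 62500943 to 62574075, minus strand) had 223 and 677 CPM in BAT surgery and BAT sham, against 617 and 505 CPM in BeAT surgery and BeAT sham. Pde11a and Fap thus stood below sham in the BAT pair and above sham in the BeAT pair. Shisa6 (chromosome 11, 66211725 to 66525964, minus strand) had 60.5 and 264 CPM in BAT surgery and BAT sham, and 199 and 125 CPM in BeAT surgery and BeAT sham. Ntf3 (chromosome 6, 126101412 to 126166910, minus strand) had 40.3 and 259 CPM in BAT surgery and BAT sham, against 211 and 222 CPM in BeAT surgery and BeAT sham. All 6 genes were lower in the library labelled BAT surgery than in BAT sham, whereas 3 of the 6 were higher in BeAT surgery than in BeAT sham.

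The share of members with a UMI of Smoc2 was 71.6% in BAT surgery, 82.8% in BAT sham, 54.5% in BeAT surgery and 79% in BeAT sham. For Lum the share was 48.4% in BAT surgery, 74.5% in BAT sham, 27.3% in BeAT surgery and 67.8% in BeAT sham. The background of Smoc2 was low in macrophage-marker nuclei outside the progenitor gate, which should lack it. The share of them with a Smoc2 UMI was 1.22%, 2.51%, 0.694% and 0.906% in BAT surgery, BAT sham, BeAT surgery and BeAT sham. Their median depths were 3735, 3419, 3874 and 2844 UMIs. Pde11a and Shisa6 were less clean in BAT surgery. There 12.9% and 10.8% of adipocyte-marker nuclei outside the gate had a UMI of them, against 2.62% and 1.59% in BAT sham. Fap had a UMI in 6.76% and 4.61% of macrophage-marker nuclei of BAT surgery and BAT sham. Pi16, the early-set gene, stood at 7.76 and 6.66 CPM in members of BAT surgery and BAT sham and at 2.11 and 2.83 CPM in those of BeAT surgery and BeAT sham. In early-set nuclei, which had at least 2 early-set genes and more of these than of the matrix set, Pi16 reached 41.0 and 601 CPM in BAT surgery and BAT sham, and 245 and 478 CPM in BeAT surgery and BeAT sham.

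**Figure D1:**
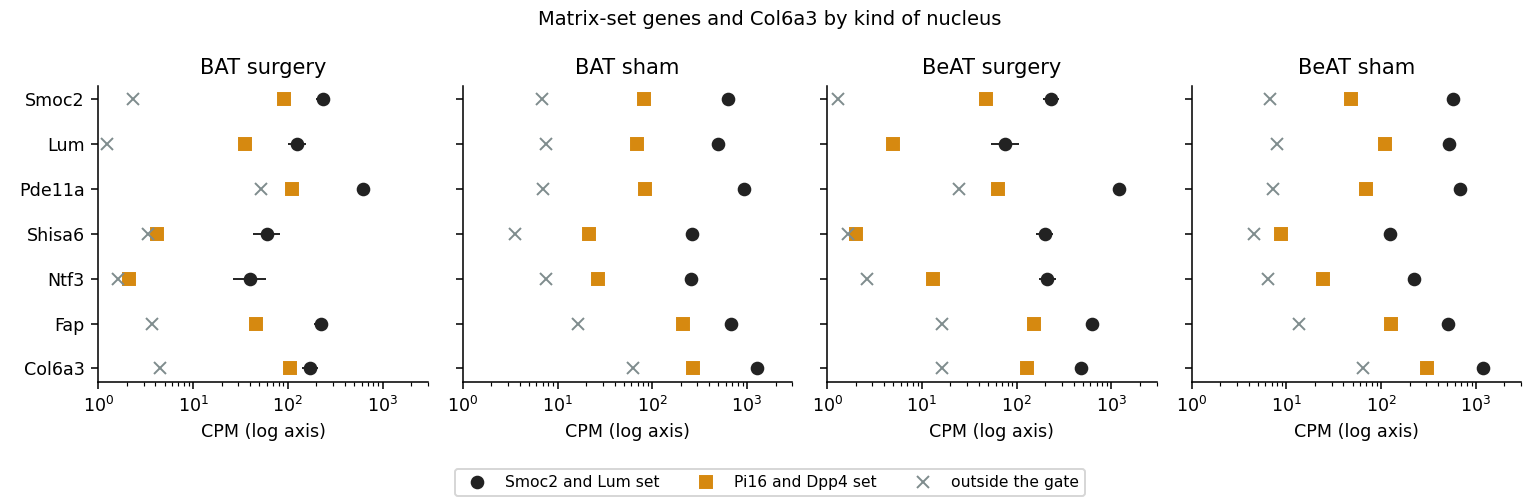
CPM of the matrix-set genes and of Col6a3 in members (circles, with 95% counting intervals), early-set nuclei (squares) and nuclei outside the gate (crosses) of each library, on a log axis. Col6a3, which the rule did not use, lies at 1270 CPM in BAT sham members and 268 CPM in BAT sham early-set nuclei, while in BAT surgery the 2 values are 171 and 106 CPM.

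Col6a3 (chromosome 1, 90765923 to 90843971, minus strand) was a marker of the label that the rule did not use. The label was chosen with earlier results of these data known, so the level of Col6a3 is a description and no independent check. It had 171 CPM (140.3 to 206) in members of BAT surgery and 1270 CPM (1238 to 1304) in those of BAT sham. In the beige pair it had 478 CPM (417 to 544) in BeAT surgery and 1199 CPM (1161 to 1237) in BeAT sham. Members exceeded early-set nuclei in all 4 libraries, with 106 CPM in early-set nuclei of BAT surgery, 268 CPM in BAT sham, 128 CPM in BeAT surgery and 302 CPM in BeAT sham. In the sham libraries 91.5% of BAT sham and 88.4% of BeAT sham members had a Col6a3 UMI. In BAT surgery 52.6% had one, and the level in nuclei with a Wt1 UMI was 149 CPM, close to that of members.

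The rule's threshold of 2 genes mattered most in the surgery libraries. Members with exactly 2 of the 6 genes numbered 53 of 95 in BAT surgery and 125 of 931 in BAT sham, and 36 of 77 in BeAT surgery and 176 of 796 in BeAT sham. Members with at least 4 genes made up 20% of BAT surgery (19 nuclei), 70.1% of BAT sham (653), 40.3% of BeAT surgery (31) and 52.3% of BeAT sham (416). Col6a3 climbed with the number of set genes in the shams. In BAT sham it stood at 125 CPM in gate nuclei with 0 set genes, 213 CPM with 1, 463 CPM with 2, 1072 CPM with 3 and 1392 CPM with 4. In BeAT sham the levels were 159.5, 365, 605, 1090 and 1468 CPM over the same steps. In BeAT surgery they were 113, 123, 141, 493 and 1488 CPM, so the nuclei with 2 genes sat at the level of those just outside the rule. In BAT surgery they were 96.2, 83.5, 144, 132 and 282 CPM, below the sham libraries at each step. Gate nuclei left out for having 0 set genes numbered 335 in BAT surgery, 1103 in BAT sham, 127 in BeAT surgery and 681 in BeAT sham, and those with 1 set gene numbered 284, 658, 127 and 398 in the same libraries. Because of these steps, values for members with at least 4 set genes are given beside many results, an option chosen after the data had been seen. In that subset Col6a3 was 249.9 and 1449 CPM in BAT surgery and BAT sham, and 1037 and 1504 CPM in BeAT surgery and BeAT sham. The subset of BAT surgery held 180040 UMIs, and 1 nucleus with all 6 set genes held 41235 of them. That nucleus had 146 CPM of Col6a3 and 437 CPM each of Adipoq and Ptprc. The BAT surgery nuclei with 4 set genes had 282, 79.3 and 35.2 CPM of these genes. Its weight in the values of the subset was not tested.

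**Figure D2:**
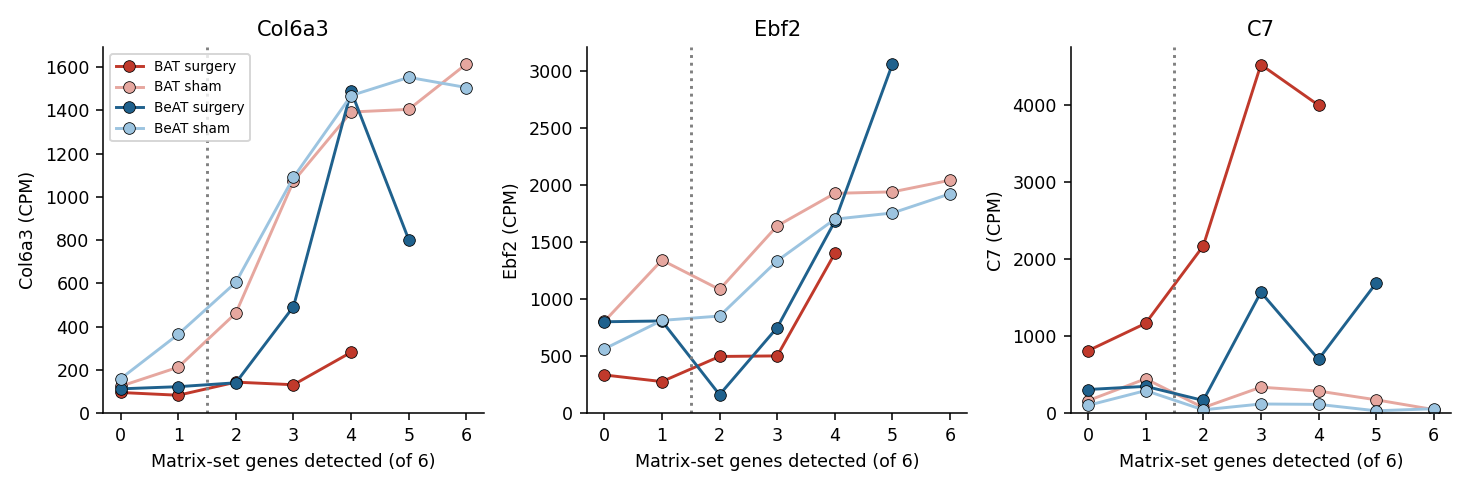
CPM of Col6a3, Ebf2 and C7 in gate nuclei grouped by how many of the 6 matrix-set genes were detected, 1 line per library, with points under 10 nuclei not drawn and a dotted line at the edge of the rule. Col6a3 reaches 1392 CPM at 4 genes in BAT sham and 1468 CPM in BeAT sham, against 282 CPM in BAT surgery.

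Whether the matrix-set genes occurred together was examined in gate nuclei before the rule, each thinned to 1000 UMIs. Lum was detected in 40.2% of BAT sham nuclei with Smoc2 and 17.1% of those without it, and in 43.6% and 24.2% of such BeAT sham nuclei. In BAT surgery the shares were 7.89% and 6.37%, and in BeAT surgery 7.41% and 4.29%, on 76 and 27 nuclei with Smoc2. Pairing of Smoc2 and Lum was thus visible in the shams and was not detectable at this depth after surgery. Pde11a occurred in 47.6% of BAT sham nuclei with Smoc2 and 23.2% of those without it, in 41.5% and 24.3% in BeAT sham, in 59.3% and 16.4% in BeAT surgery, and in 17.1% and 12.2% in BAT surgery. Pi16 went the other way in the shams, with 3.67% of BAT sham nuclei with Smoc2 and 21.5% of those without it, and 2.58% and 6.93% in BeAT sham. Opcml, a cell adhesion gene of the early set, was found in 12.7% of BAT sham nuclei with Smoc2 and 46.9% of those without it, and in 7.45% and 22.9% in BeAT sham. BAT surgery did not show this separation for Pi16 and Opcml. There Pi16 was found in 6.58% of nuclei with Smoc2 and 2.77% without, on 5 and 10 nuclei, and Opcml in 23.7% and 26.9%. Dpp4, another early-set gene, did part there, with 3.95% of nuclei with Smoc2 and 12.7% of those without it, on 3 and 46 nuclei. In BeAT surgery the shares were 0% and 12.1% for Pi16, and 29.6% and 49.3% for Opcml.

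The members formed a far smaller share of the surgery libraries. They were 0.956% (0.774 to 1.17) of kept nuclei in BAT surgery and 8.94% (8.40 to 9.50) in BAT sham, 9.35-fold lower (7.57 to 11.7). In the beige pair they were 1.29% (1.02 to 1.62) in BeAT surgery and 7.67% (7.16 to 8.19) in BeAT sham, 5.92-fold lower (4.68 to 7.59). A share of all nuclei moves with the number of every other cell type in the library. Within the progenitor gate the shares lay closer, at 12.0% (9.83 to 14.5) in BAT surgery and 30.8% (29.1 to 32.5) in BAT sham, and at 20.4% (16.5 to 24.9) in BeAT surgery and 40.1% (37.9 to 42.3) in BeAT sham. That was 2.56-fold lower (2.07 to 3.20) in the BAT pair and 1.96-fold lower (1.55 to 2.51) in the BeAT pair. The early-set nuclei took 34.1% of the gate in BAT surgery and 32.2% in BAT sham, and 42.2% in BeAT surgery against 16.0% in BeAT sham. The progenitor gate of the surgery libraries thus held a smaller share of matrix-set nuclei, while the early-set share differed by less than counting error in the BAT pair and was higher in BeAT surgery. Between the sham libraries, members were 1.17 times as frequent (1.06 to 1.28) among kept nuclei of BAT sham as of BeAT sham, but 0.768 times as frequent (0.698 to 0.845) within the gate. After each nucleus was thinned to 1000 UMIs, which left 9163, 9304, 5285 and 8840 kept nuclei in BAT surgery, BAT sham, BeAT surgery and BeAT sham, the shares of the gate were 7.32% in BAT surgery and 35.8% in BAT sham, and 19.2% in BeAT surgery and 39.3% in BeAT sham.

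**Figure D3:**
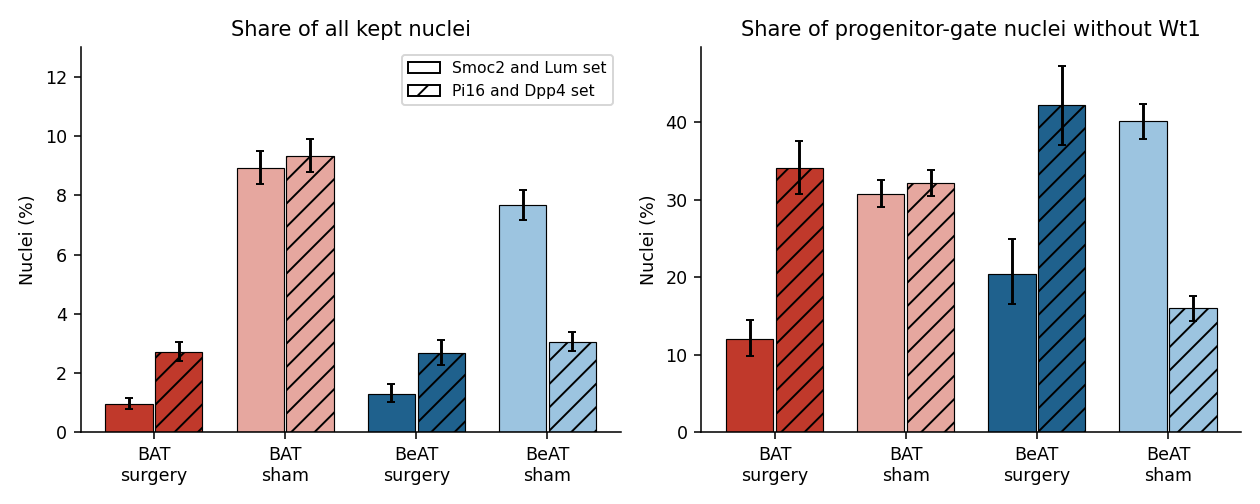
Members (plain bars) and early-set nuclei (hatched bars) as a percentage of kept nuclei, left, and of progenitor-gate nuclei without Wt1, right, in each library, with exact 95% binomial intervals that cover counting error only. Members of both surgery libraries lie below their sham library on both scales, at 0.956% against 8.94% of kept nuclei in the BAT pair.

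Members were next set against early-set nuclei of the same library. The rule separated the nuclei on these transcripts, so the comparison is a description without a test. Of 8386 genes, 0.334% were higher in members of all 4 libraries by 2-fold or more and 0.572% lower. Bmper, a secreted modulator of BMP signalling, had 894, 1399, 818 and 1148 CPM in members of BAT surgery, BAT sham, BeAT surgery and BeAT sham, and 344, 159.7, 108 and 136 CPM in their early-set nuclei. Gucy1a2 and Gucy1b1, subunits of the nitric oxide receptor that makes cGMP, were both on the list, the first with 174, 441, 739.7 and 293 CPM in members and 57.3, 97.1, 86.9 and 83.8 CPM in early-set nuclei. The gene of a cGMP-degrading enzyme, Pde11a, was part of the rule, and these 2 genes of cGMP synthesis were not. Markers of mural cells moved with them. Notch3, a receptor of pericytes, had 93.1, 81.0, 300.1 and 72.1 CPM in members and 40.5, 16.8, 26.0 and 25.8 CPM in early-set nuclei, and the 12 mural genes summed to 946, 850.4, 1289 and 975 CPM in members and 900.0, 264, 334 and 435 CPM in early-set nuclei. Their part in the cGMP genes was not tested. Col15a1, a collagen of basement membrane zones, had 159.8, 432, 167 and 373 CPM in members and 63.6, 62.8, 17 and 76.6 CPM in early-set nuclei of the same 4 libraries. Col5a3, Vcam1, which encodes an adhesion molecule, Pappa, a protease of IGF-binding proteins, Sema3a, a secreted guidance cue, and Sgip1 were also at least 2-fold higher in members of all 4 libraries. On the other side stood Cd55, an inhibitor of complement, with 41.9, 62.8, 97.2 and 41.6 CPM in members and 128, 696, 552 and 556 CPM in early-set nuclei. Ackr3, a scavenging chemokine receptor, had 12.4, 122, 67.6 and 96.0 CPM in members against 69.4, 459, 569 and 352 CPM in early-set nuclei, and Adamts16, Ano3, Fez1 and Osr2 were lower too.

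In the sham libraries 2.53% of 12068 genes were higher in members of both by 2-fold or more and 4.32% lower. Adam12, a membrane metalloprotease, had 1352 CPM in members and 92.0 CPM in early-set nuclei of BAT sham, and 1336 and 168 CPM in BeAT sham. Lamc3, a laminin chain, had 85.9 and 4.05 CPM in BAT sham members and early-set nuclei, and 101 and 4.84 CPM in BeAT sham. Olfm2, Fbln7 and Prtg were higher in members in the same way, with Olfm2 at 108 and 6.81 CPM in BAT sham and 122 and 7.25 CPM in BeAT sham. Lower in sham members were Dact2, an inhibitor of WNT and TGF-beta signalling (2.22 and 197 CPM in BAT sham, 2.20 and 126 CPM in BeAT sham), and Aldh1a3, an enzyme of retinoic acid synthesis (2.88 and 122 CPM in BAT sham, 0.315 and 71.7 CPM in BeAT sham). Myoc, Dmkn and Bmp7 were lower as well. By list, fibrillar collagens had a median log2 ratio of members over early-set nuclei of 0.51 in BAT surgery, 1.20 in BAT sham, 0.56 in BeAT surgery and 0.83 in BeAT sham. Basement membrane genes had 0.19, 1.09, 0.51 and 0.82 in those libraries, while the medians over all genes lay between −0.13 and 0.04. Complement genes had −0.59 in BAT sham and −0.91 in BeAT sham, against 0.56 in BAT surgery and 0.08 in BeAT surgery. WNT genes had −0.91 in BAT sham and −0.44 in BeAT sham, against −0.05 in BAT surgery and 0.02 in BeAT surgery. At least 1.5-fold lower in members were 12 of 22 WNT genes in BAT sham and 10 of 20 in BeAT sham, where 15.8% and 12.1% of all genes were.

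Compared with the 319 Wt1 nuclei of BAT surgery, the only library with enough of them, 7.87% of genes were higher in members by 2-fold or more and 6.36% lower. Pkhd1l1, Muc16, Lrrn4 and Gpm6a, genes found in mesothelium, had 1.55, 6.21, 3.10 and 6.21 CPM in members and 155, 172, 61.7 and 279.7 CPM in Wt1 nuclei. Higher in members were Tshr, the thyrotropin receptor, with 217 CPM in members and 17 CPM in Wt1 nuclei, and the adipocyte genes Adrb3 (71.4 and 4.63 CPM) and Pnpla3 (175 and 18.0 CPM).

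Transcripts of other cell types were summed in members and, for comparison, in nuclei outside the progenitor gate. The 10 epididymal genes of the marker list, all detected, summed to 9401 CPM in members of BAT surgery, and to 5.99 CPM in BAT sham, 10.6 CPM in BeAT surgery and 4.72 CPM in BeAT sham, where Gpx5 was at 0. Outside the gate of BAT surgery the sum was 10686 CPM. The 12 lymphocyte genes summed to 569 and 62.6 CPM in members of BAT surgery and BAT sham, and to 998 and 67.7 CPM in BeAT surgery and BeAT sham. Outside the gate they summed to 621 and 296 CPM in BAT surgery and BAT sham, and to 5784 and 194 CPM in BeAT surgery and BeAT sham. Their defining gene Cd79a was at 0 in BAT surgery members alone. The 8 macrophage genes summed to 957 and 356 CPM in BAT surgery and BAT sham, and to 218 and 195 CPM in BeAT surgery and BeAT sham, with Csf1r at 0 in BeAT surgery. Outside the gate the macrophage sums ran 907 and 1863 CPM, and 390.4 and 806 CPM, in the same libraries, the reverse order within each pair. The 11 adipocyte genes, all detected in each library, summed to 5768 and 6162 CPM in BAT surgery and BAT sham, and to 4104 and 5904 CPM in BeAT surgery and BeAT sham. Outside the gate they summed to 3779 and 19492 CPM in BAT surgery and BAT sham, and to 10573 and 18945 CPM in BeAT surgery and BeAT sham. The 10 endothelial genes, all detected, summed to 413 and 546 CPM in members of BAT surgery and BAT sham, and to 471 and 751 CPM in BeAT surgery and BeAT sham. The 7 genes of lymph node stroma summed to 371 and 71.0 CPM in BAT surgery and BAT sham, and to 463 and 137 CPM in BeAT surgery and BeAT sham, with Madcam1 at 0 in members of every library except BeAT surgery. The 12 mural genes summed to 946 and 850.4 CPM in members of BAT surgery and BAT sham and to 1289 and 975 CPM in those of BeAT surgery and BeAT sham, against 93.8 and 386 CPM and 158 and 443 CPM outside the gate. The 8 skeletal muscle genes summed to 7.76 and 487 CPM and to 101 and 39.4 CPM, with Ckm and Myh4 at 0 in BAT surgery and in BeAT sham. Their part in the differences below was not tested.

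Between members of the sham libraries, where both sides had over 700 nuclei, few genes differed. Of 11028 genes, 1.76% stood 2-fold or more above BeAT sham in BAT sham, and 5.20% stood that far below. The 10 genes that stood farthest above were all of skeletal muscle, led by Myh4 (61.7 CPM in BAT sham, none in BeAT sham) and titin, Ttn (213 and 2.52 CPM). Those farthest below were the 4 haemoglobin genes, among them Hbb-bs (104 CPM in BAT sham and 1712 CPM in BeAT sham), Fabp5 (61.9 and 348 CPM) and the chemokine genes Cxcl10, Ccl5, Cxcl1, Ccl2 and Cxcl9. Cxcl10 had 5.55 and 46.6 CPM and Ccl2 7.10 and 37.2 CPM in BAT sham and BeAT sham, and both turned to the other direction in members with at least 3 set genes, at log2 ratios of 0.24 and 1.22. The matrix itself was close to level. Fibrillar collagen genes had a median log2 ratio of 0.16 with 0 of 7 beyond 1.5-fold, at which 9.59% of all genes were higher and 14.6% lower. Small leucine-rich proteoglycan genes had a median of 0.05, collagen VI and related genes −0.01 and matrix processing genes 0.16. Adipogenic genes had −0.21 with 5 of 18 lower, immediate early genes −0.94 with 9 of 14 lower and mitochondrially encoded genes −1.50 with 13 of 13 lower in BAT sham. The median over all genes was 0.04, and the shortest 5% of genes had a median of −0.64 against 0.33 for the longest.

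More genes passed 2-fold between surgery and sham members than between the shams, but at lower precision. Members held 644589 UMIs in BAT surgery and 473150 in BeAT surgery, against 4507259 in BAT sham and 3175715 in BeAT sham. Counting error was thus larger here than between the shams, and its part in these counts was not tested. In the BAT pair 10.8% of 10096 genes stood 2-fold or more above sham in surgery members, and 9.58% that far below. In the BeAT pair 9.55% of 8959 genes stood as far above in surgery members and 21.4% below. In members with at least 4 set genes the shares were 10.4% higher and 12.2% lower in the BAT pair, and 7.77% higher and 20.6% lower in the BeAT pair. Of 8791 genes measured in both pairs, 331 were lower in both. They made up 42.3% of the BAT pair's lower genes, while 1844 of all 8791 were lower in the BeAT pair. They made up 18.0% of the BeAT pair's lower genes, while 783 of all 8791 (8.91%) were lower in the BAT pair. A further 172 were higher in both. These were 23.9% of the BAT pair's higher genes, while 797 of all 8791 (9.07%) were higher in the BeAT pair. They were 21.6% of the BeAT pair's higher genes, while 720 of all 8791 (8.19%) were higher in the BAT pair. In opposite directions, 258 of the 720 genes higher in the BAT pair were lower in the BeAT pair, as were 1844 of all 8791. Of the 783 genes lower in the BAT pair, 44 were higher in the BeAT pair, as were 797 of all 8791. Gene length moved with the BeAT pair, in which the shortest 5% of genes had a median log2 ratio of −1.58 and the longest 5% one of 0.67. In the BAT pair those medians were 0.40 and 0.08.

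The fibrillar collagens, the main tensile fibres of connective tissue, were lower among all members of the surgery libraries. Col1a1 had 365 and 1313 CPM in BAT surgery and BAT sham, and 235 and 1346 CPM in BeAT surgery and BeAT sham. Col1a2 had 496 and 1741 CPM in BAT surgery and BAT sham, and 539 and 1821 CPM in BeAT surgery and BeAT sham. Col3a1 had 783 and 4064 CPM in BAT surgery and BAT sham, and 1137 and 3568 CPM in BeAT surgery and BeAT sham. Col1a2 and Col3a1 are genes of the gate, so the list counts and medians below include genes that the rule used. By the 1.5-fold count, 7 of 7 fibrillar genes were lower in BAT surgery (median log2 ratio −1.81) and 4 of 7 in BeAT surgery (−1.34). Over all genes, 19.2% were lower and 25.5% higher in the BAT pair (median 0.10), and 31.3% lower and 23.5% higher in the BeAT pair (median −0.05). In members with at least 4 set genes the fibrillar medians were −1.49 in the BAT pair and −0.51 in the BeAT pair. In that subset 7 of 7 genes were lower in the BAT pair, and 3 lower and 2 higher of 7 in the BeAT pair. Over all genes of that subset, 2178 of 11252 were lower and 2985 higher in the BAT pair. In the BeAT pair 2859 of 9380 were lower and 2000 higher, and both fibrillar counts of that pair were near these shares. Within the subset Col1a1 stayed low, at 517 and 1448 CPM in BAT surgery and BAT sham and at 342 and 1566 CPM in BeAT surgery and BeAT sham. Col5a2, which joins type I fibrils, parted in that subset, with 594 and 1300 CPM in BAT surgery and BAT sham but 1876 and 991 CPM in BeAT surgery and BeAT sham.

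Among collagen VI and related genes, Col6a1 had 97.7 and 404 CPM in BAT surgery and BAT sham, and 88.8 and 445 CPM in BeAT surgery and BeAT sham. Col6a2 followed it, with 105 and 509 CPM in BAT surgery and BAT sham, and 154 and 512 CPM in BeAT surgery and BeAT sham. Col6a5 and Col6a6 went the opposite way in the library labelled BAT surgery, with Col6a5 at 346 CPM there and 1.33 CPM in BAT sham, and Col6a6 at 329 and 11.8 CPM. In BeAT surgery and BeAT sham Col6a5 had 2.11 and 1.26 CPM. The list median for the BAT pair, 1.23 with 5 genes higher and 3 lower of 8, therefore joined genes of both directions, and it turned to −0.26 in members with at least 4 set genes. Col14a1, a collagen that sits on the fibril surface, had 62.1 and 22.9 CPM in BAT surgery and BAT sham, and 167 and 11.7 CPM in BeAT surgery and BeAT sham. It was a gene of the early-set nuclei in all 4 libraries, at 209 to 396 CPM.

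Basement membrane genes were lower too among all members of the surgery libraries. Col4a1, a chain of the sheet-forming collagen IV, had 369 and 1517 CPM in BAT surgery and BAT sham, and 636 and 1310 CPM in BeAT surgery and BeAT sham. Nid1, the linker nidogen, had 240.5 and 674 CPM in BAT surgery and BAT sham, and 235 and 522 CPM in BeAT surgery and BeAT sham. Of 15 and 14 genes, 10 and 8 were lower in BAT surgery and in BeAT surgery, and 4 and 1 higher, with medians of −0.98 and −0.77. With at least 4 set genes the medians were −0.71, with 9 of 15 lower, and −0.17, with 4 of 14 lower and 3 higher. Both of these BeAT counts were near the shares over all genes of the subset, 2859 lower and 2000 higher of 9380. Of the 10 endothelial genes, 3 were lower in the BAT pair (median −0.16), and 8 were lower and 1 higher in the BeAT pair (−2.10). At 4 or more set genes the endothelial medians were 1.14 in the BAT pair and −1.06 in the BeAT pair. Their part was not tested. Lamc1, a laminin chain, was 1 of the genes on which the pairs parted there, as it had 783 and 898 CPM in BAT surgery and BAT sham and 1572 and 752 CPM in BeAT surgery and BeAT sham. Col4a5 and Col4a6 ran against the list in the BAT pair, with Col4a6 at 76.0 CPM in BAT surgery and 5.55 CPM in BAT sham.

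Small leucine-rich proteoglycans, which space collagen fibrils, were lower in 8 of 9 genes in the BAT pair (median −1.22) and in 6 of 8 in the BeAT pair (−1.89). In the subset with 4 or more set genes the medians were −0.55 (4 of 8 lower) and −1.29 (5 of 7 lower). Dcn, decorin, had 1420 and 3298 CPM in BAT surgery and BAT sham, and 849.6 and 3188 CPM in BeAT surgery and BeAT sham. Ogn, Prelp and Lum were lower in both surgery libraries. Dcn is a gene of the gate and Lum of the matrix set. The counts and medians of this list thus include genes that the rule used. Matricellular genes were lower in 10 of 14 in the BAT pair (median −1.58) and 11 of 15 in the BeAT pair (−1.15), and with at least 4 set genes in 8 of 13 (−1.21) and 6 of 13 (−0.52). Sparc, a collagen-binding glycoprotein, had 635 and 2485 CPM in BAT surgery and BAT sham, and 404 and 3166 CPM in BeAT surgery and BeAT sham. It kept that order at 4 or more set genes, with 861 and 2546 CPM in BAT surgery and BAT sham, and 572 and 3291 CPM in BeAT surgery and BeAT sham. Tnxb, tenascin-X, had 242 and 804 CPM in BAT surgery and BAT sham, and 404 and 614 CPM in BeAT surgery and BeAT sham.

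Enzymes that build and cut the matrix followed among all members. Lox, which cross-links collagen and elastin, had 21.7 and 195 CPM in BAT surgery and BAT sham, and 35.9 and 133 CPM in BeAT surgery and BeAT sham. The collagen chaperone gene Serpinh1 had 118 and 245 CPM in BAT surgery and BAT sham, and 69.7 and 326 CPM in BeAT surgery and BeAT sham. Of 16 processing genes, 10 were lower and 0 higher in the BAT pair, and 7 lower and 1 higher in the BeAT pair, with medians of −0.81 and −0.39. In the nuclei with at least 4 set genes those medians were −0.51 and −0.14. There 8 of 16 genes were lower in the BAT pair, and 5 lower and 3 higher of 15 in the BeAT pair. Both of these BeAT counts were near the shares over all genes of the subset, 2859 lower and 2000 higher of 9380. Proteases and inhibitors were lower in 10 of 18 and 9 of 17 genes and higher in 4 and 1, with medians of −1.08 and −0.93, and of −1.14 and −0.69 with at least 4 set genes. Ctsk, the collagen-degrading cathepsin K, had 21.7 and 295 CPM in BAT surgery and BAT sham, and 35.9 and 317 CPM in BeAT surgery and BeAT sham. Mmp3, stromelysin, had no UMI in BAT surgery, at least 45.4-fold below the 211 CPM of BAT sham, and had 101 and 222 CPM in BeAT surgery and BeAT sham. Timp3, a matrix-bound protease inhibitor, had 275 and 1378 CPM in BAT surgery and BAT sham, and 385 and 1349 CPM in BeAT surgery and BeAT sham.

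**Figure D4:**
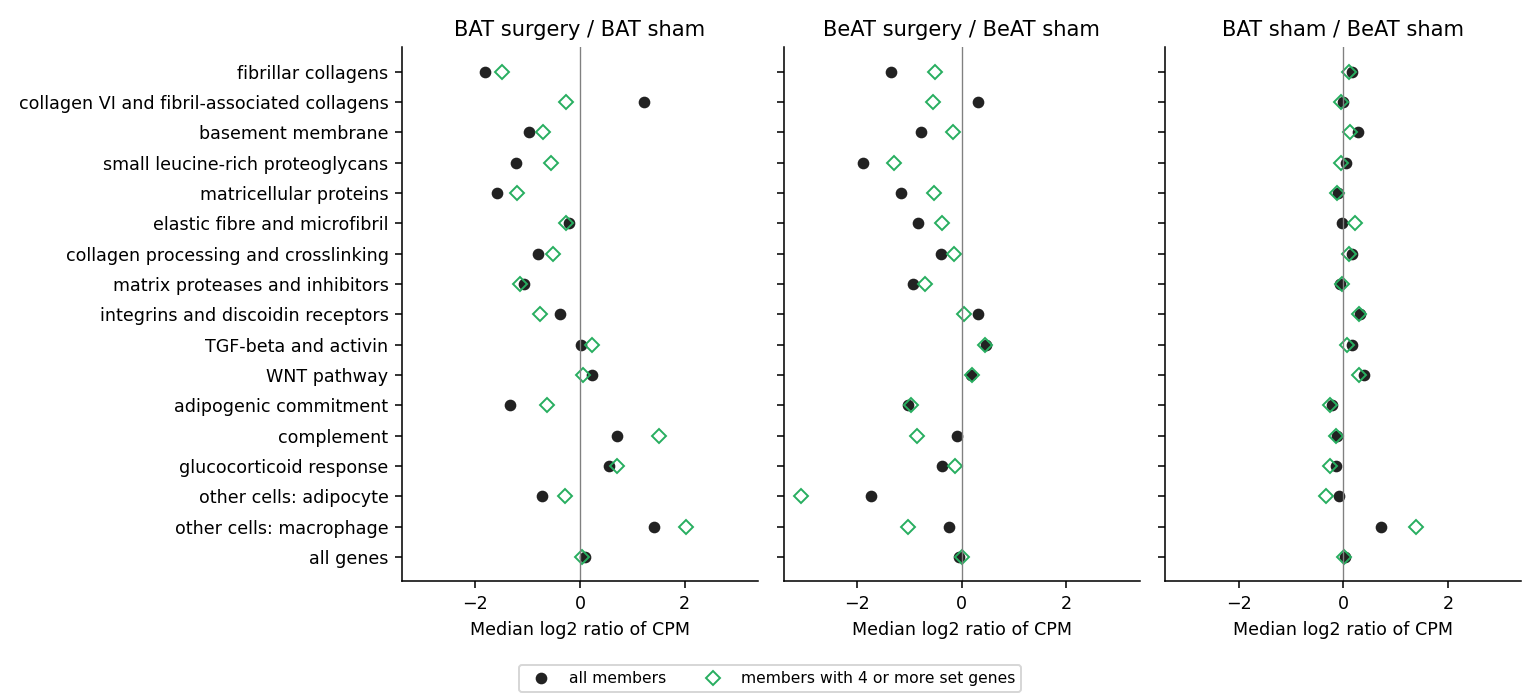
Median log2 CPM ratio of 16 gene lists and of all genes, in all members (circles) and in members with at least 4 set genes (diamonds), for surgery over sham in the BAT pair, surgery over sham in the BeAT pair and BAT sham over BeAT sham. In all members, fibrillar collagens lie at −1.81 in the BAT pair, −1.34 in the BeAT pair and 0.16 between the shams.

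Genes lower in both pairs that lay outside the matrix lists included Nnat, neuronatin, an endoplasmic reticulum proteolipid expressed in adipose tissue. It had 51.2 and 968 CPM in BAT surgery and BAT sham, 18.9-fold lower (13.4 to 27.5), and 48.6 and 1139 CPM in BeAT surgery and BeAT sham, 23.4-fold lower (15.6 to 37.0). Among nuclei with 4 or more set genes it had 16.7 and 728 CPM in BAT surgery and BAT sham, and 37.3 and 949 CPM in BeAT surgery and BeAT sham. Npr3, the natriuretic peptide clearance receptor, had 52.7 and 401 CPM in BAT surgery and BAT sham, and 23.2 and 323 CPM in BeAT surgery and BeAT sham. Gsn, the actin-severing protein gelsolin, had 1115 and 6157 CPM in BAT surgery and BAT sham, and 784 and 7147 CPM in BeAT surgery and BeAT sham. The chemokine genes Cxcl14 and Ccl11 had 14.0 and 35.7 CPM in BAT surgery and 130.0 and 214 CPM in BAT sham, and 12.7 and 23.2 CPM in BeAT surgery and 168 and 198 CPM in BeAT sham. These genes were taken from those lower in both pairs, so their lying on the same side is no separate result.

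Genes higher in both pairs included C7, a component of the complement membrane attack complex (chromosome 15, 4988762 to 5063740, minus strand). It had 3249 and 195 CPM in BAT surgery and BAT sham, and 626 and 81.6 CPM in BeAT surgery and BeAT sham. In members with at least 4 set genes it had 4049 and 186 CPM in BAT surgery and BAT sham, and 1143 and 78.4 CPM in BeAT surgery and BeAT sham. C7 was not particular to members. Early-set nuclei had 1778 and 709 CPM of it in BAT surgery and BAT sham, and 725 and 669 CPM in BeAT surgery and BeAT sham. Wt1 nuclei of BAT surgery had 2781 CPM. Spon1, the matrix protein F-spondin (chromosome 7, 113765998 to 114043370, plus strand), had 234 and 16.4 CPM in BAT surgery and BAT sham, and 325 and 17.6 CPM in BeAT surgery and BeAT sham. In the subset with at least 4 set genes Spon1 had 278 and 14.1 CPM in BAT surgery and BAT sham, and 342 and 13.2 CPM in BeAT surgery and BeAT sham. Both genes were therefore as high in nuclei with more set genes. Vegfc, a lymphatic growth factor, had 180 and 43.5 CPM in BAT surgery and BAT sham, and 150.1 and 12.9 CPM in BeAT surgery and BeAT sham. Il33, an alarmin, had 41.9 and 4.88 CPM in BAT surgery and BAT sham, and 137 and 2.52 CPM in BeAT surgery and BeAT sham. The genes higher in both pairs also included immunoglobulin genes, which moved with the lymphocyte sums given above, with Igha at 102 and 0.887 CPM in BAT surgery and BAT sham and at 139 and 0.630 CPM in BeAT surgery and BeAT sham.

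**Figure D5:**
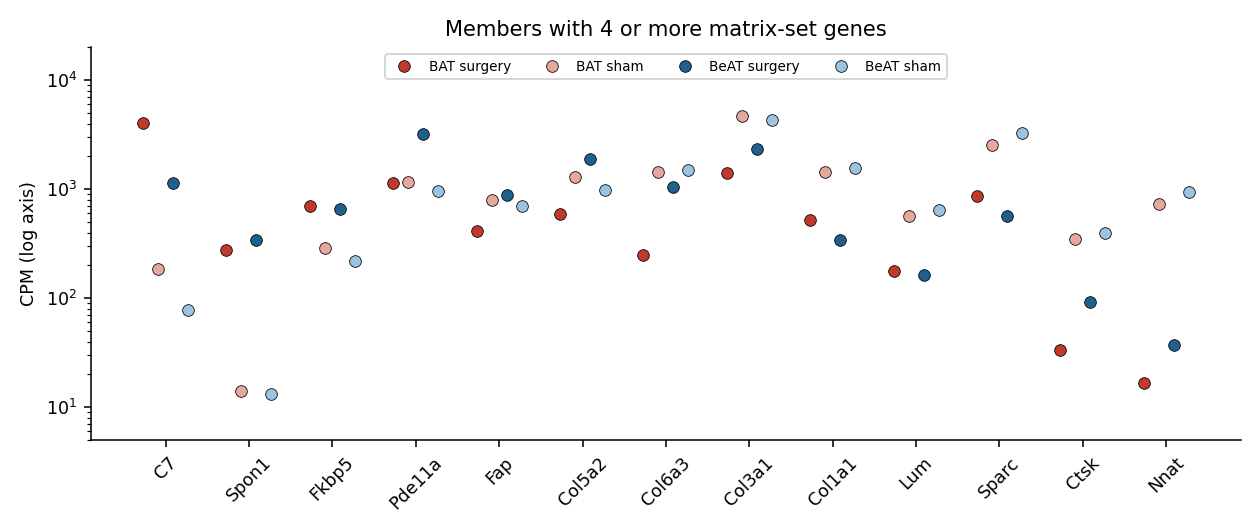
CPM of 13 genes in members with at least 4 matrix-set genes, 1 point per library, in 19 nuclei of BAT surgery, 653 of BAT sham, 31 of BeAT surgery and 416 of BeAT sham, on a log axis. C7 and Spon1 lie higher in both surgery libraries and Sparc, Nnat and Ctsk lower.

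Each pair also had its own largest differences. The 10 genes that stood farthest above sham in BAT surgery were 0 in BAT sham and are products of epididymal epithelium or of its defensin, lipocalin and PATE families. Gpx5 reached 5093 CPM, at least 7652-fold higher, and Adam7 and Spag11b 1919 and 1812 CPM. Tbx15, a transcription factor whose level differs between fat depots, was 3.10 CPM in BAT surgery and 335 CPM in BAT sham, 108-fold lower (29.9 to 893). In BeAT surgery and BeAT sham it had 380.4 and 258 CPM. Positional homeobox genes differed with it, since Hoxa9 had no UMI in BAT surgery, at least 11.5-fold below the 53.5 CPM of BAT sham, while Hoxd4 had 102 and 4.88 CPM in BAT surgery and BAT sham. Anterior Hox genes had a median of 1.57 with 8 of 12 higher in the BAT pair and 0.54 with 4 of 10 higher in the BeAT pair. With at least 4 set genes 5 of 10 (median 0.38) and 6 of 8 were higher. Posterior Hox genes had −0.91 with 6 of 9 lower in the BAT pair and −1.21 with 6 of 8 lower in the BeAT pair, where taking off the trend with gene length left −0.36. In the subset with 4 or more set genes the medians were −0.96 and −0.84.

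In BeAT surgery the genes farthest above sham included long genes best known from neurons. Csmd1 had 9504 CPM in BeAT surgery and 103 CPM in BeAT sham, Pcdh15 1636 and 11 CPM, and Robo2 729 and 1.57 CPM. The 36 members with exactly 2 set genes held 89.0% of the Csmd1 UMIs, 97.4% of the Pcdh15 UMIs and 93.0% of the Robo2 UMIs of BeAT surgery members. Among nuclei with 4 or more set genes the log2 ratios of Csmd1 and Pcdh15 were −1.11 and −0.08. These differences lay in nuclei at the edge of the rule. The genes farthest below were haemoglobins, with Hbb-bs at 16.9 and 1712 CPM in BeAT surgery and BeAT sham, and lipid-binding genes, with Fabp4 at 877 and 11758 CPM and Car3 at 653 and 6290 CPM. In the subset with at least 4 set genes Tll1, a protease of procollagen, was among the genes farthest above sham, with 528 CPM in BeAT surgery and 7.18 CPM in BeAT sham, together with Dkk2, a secreted WNT modulator, with 348 and 35.3 CPM.

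Between members of the surgery libraries, 15.5% of 4772 genes were higher in BAT surgery than in BeAT surgery by 2-fold or more and 9.14% lower. The epididymal genes again stood farthest above, followed by Frmpd4 (864 CPM in BAT surgery and 2.11 CPM in BeAT surgery) and Cnksr2 (825 and 2.11 CPM), which encode scaffold proteins. Farthest below were neuronal genes such as Adgrb3 (1.55 and 1103 CPM) and Dab1 (no UMI in BAT surgery, at least 58.6-fold below the 273 CPM of BeAT surgery). With them were Il7, the gene of a cytokine that acts on lymphocytes (4.65 and 516 CPM), and Tbx15 (3.10 and 380.4 CPM). Pcdh15 (14.0 and 1636 CPM) and Robo2 (9.31 and 729 CPM) were also among those farthest below. Their UMIs in BeAT surgery lay mostly in members with exactly 2 set genes, as given above. No such share is given here for Adgrb3, Dab1 and Il7. The counts behind these shares were 739 and 436 genes, and 44 and 57 after thinning to 1000 UMIs.

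Adipogenic genes were lower in surgery members in 13 of 18 genes of the BAT pair (median −1.33) and 11 of 18 of the BeAT pair (−1.02), with 2 higher in each. Pparg, the master regulator of adipogenesis, had 558 and 1492 CPM in BAT surgery and BAT sham, and 733 and 1516 CPM in BeAT surgery and BeAT sham. Ebf2, a transcription factor of progenitors committed to thermogenic fat, had 742 and 1804 CPM in BAT surgery and BAT sham, and 998 and 1442 CPM in BeAT surgery and BeAT sham. At 4 or more set genes Ebf2 was lower in the BAT pair alone, with 1366 and 1959 CPM in BAT surgery and BAT sham, and 2460 and 1744 CPM in BeAT surgery and BeAT sham. Lpl, lipoprotein lipase, had 539.9 and 1575 CPM in BAT surgery and BAT sham, and 514 and 1818 CPM in BeAT surgery and BeAT sham. In the nuclei with at least 4 set genes the medians were −0.63 and −0.97. The 11 adipocyte genes, whose sums are given above, moved with this list, at medians of −0.73 in the BAT pair and −1.74 in the BeAT pair. In the nuclei with at least 4 set genes the adipocyte medians were −0.29 (3 of 11 lower) and −3.07 (10 of 11 lower), and their part was not tested.

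Receptors and signalling lists were less one-sided. Pdgfra, the receptor of the gate, had 189 and 664 CPM in BAT surgery and BAT sham, and 364 and 590.4 CPM in BeAT surgery and BeAT sham. TGF-beta genes had medians of 0.01 in the BAT pair and 0.47 in the BeAT pair, BMP genes 0.01 and 0.25, and WNT genes 0.23 and 0.18. With at least 4 set genes the BMP median of the BeAT pair was −0.14. Fst, the activin antagonist follistatin, had 32.6 and 134 CPM in BAT surgery and BAT sham, and 38 and 83.8 CPM in BeAT surgery and BeAT sham. Ror1, a WNT receptor, had 586 and 688 CPM in BAT surgery and BAT sham, and 1139 and 520.2 CPM in BeAT surgery and BeAT sham. Fgf10, a ligand that acts on preadipocytes, had 99.3 and 464 CPM in BAT surgery and BAT sham, and 228 and 343 CPM in BeAT surgery and BeAT sham. Itgbl1, an integrin-like secreted protein, had 149 and 703 CPM in BAT surgery and BAT sham, but 395 and 319.9 CPM in BeAT surgery and BeAT sham. Integrin and receptor genes as a list had 1 higher and 5 lower of 13 in the BAT pair (median −0.38), and 5 higher and 3 lower of 13 in the BeAT pair (0.32). Among nuclei with 4 or more set genes the counts higher and lower were 0 and 8 of 12 in the BAT pair, and 2 and 2 of 11 in the BeAT pair, with medians of −0.76 and 0.05.

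Complement genes were higher in 5 of 10 in the BAT pair (median 0.70) and divided in the BeAT pair, with 4 higher and 5 lower (−0.08). At 4 or more set genes the pairs parted, with 8 higher and 1 lower in the BAT pair and 1 higher and 6 lower in the BeAT pair (−0.85). C3, the central component, had 1035 and 169 CPM in BAT surgery and BAT sham, and 465 and 190.2 CPM in BeAT surgery and BeAT sham. In the subset with 4 or more set genes C3 had 2244 and 171 CPM in BAT surgery and BAT sham, against 323 and 217 CPM in BeAT surgery and BeAT sham. Glucocorticoid-responsive genes had a median of 0.56 in the BAT pair and −0.38 in the BeAT pair, and of 0.70 and −0.13 with at least 4 set genes. Fkbp5, a chaperone induced by glucocorticoids, was higher in both, with 842 and 269 CPM in BAT surgery and BAT sham, and 554 and 184 CPM in BeAT surgery and BeAT sham. Zbtb16, another such gene, had 594 and 377 CPM in BAT surgery and BAT sham, and 645 and 252 CPM in BeAT surgery and BeAT sham. Phosphodiesterase genes had 4 higher and 4 lower of 15 in the BAT pair (median −0.05) and had 6 of 15 higher and 0 lower in the BeAT pair (0.32). That count was 4 higher and 3 lower of 13 with at least 4 set genes, and the BeAT median was −0.31 with the length trend taken off. Pde4d, a cAMP phosphodiesterase, had 746 and 326 CPM in BAT surgery and BAT sham, and 695 and 236 CPM in BeAT surgery and BeAT sham. Interferon-stimulated genes were lower in 9 of 15 in both pairs, with medians of −1.19 and −1.12. With at least 4 set genes 8 of 15 and 6 of 12 were lower (−0.63 and −0.58), and with the length trend taken off the medians of all members were −1.26 and −0.43. Mitochondrially encoded genes had medians of 0.52 in the BAT pair and −1.84 in the BeAT pair, where 13 of 13 were lower. With the length trend taken off the medians were 0.12 and −0.26, and with at least 4 set genes 0.86 and −2.29. The median mitochondrial share of a member was 0.124% and 0.127% in BAT surgery and BAT sham, and 0.0721% and 0.345% in BeAT surgery and BeAT sham. Whether depth, RNA quality or the other cells' transcripts had a part in any of these differences was not tested.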

How the data were processed

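The authors deposited 1 table of raw UMI counts per library, 32285 genes by barcode, and these counts were the only values used. Barcodes numbered 9946 in BAT surgery, 10445 in BAT sham, 5952 in BeAT surgery and 10417 in BeAT sham, with 60409801, 47525684, 23118695 and 35675477 UMIs. The gene and mitochondrial filters removed 4, 29, 3 and 34 barcodes. Per the labels' protocols, tissue was minced, digested and made into a cell suspension for SeekGene libraries. The submitters' processing notes name mm10 and Seurat 4.4.0 and 4. Which aligner and counter made the tables is not given in the sources used here.

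From the counts, members were chosen by the rule given in the report. UMIs were summed over the members of a library and scaled to their total (CPM). Ratios carry exact conditional binomial 95% intervals and shares exact Clopper-Pearson intervals. Both cover counting error only. With 1 library per group no test was run. A gene was counted at a 2-fold difference with at least 50 UMIs in both libraries together. List genes were counted at 1.5-fold with at least 20 UMIs. A ratio to 0 put 3 UMIs in place of the 0. Doublets were kept in the main values. In an alternative they were left out with Scrublet (expected rate 6%), which marked 783, 661, 621 and 707 nuclei in BAT surgery, BAT sham, BeAT surgery and BeAT sham. Its automatic threshold marked 1 and 0 nuclei in the sham libraries, so the highest-scoring nuclei were used there. Adipocyte-marker nuclei had at least 4 of 7 adipocyte markers and macrophage-marker nuclei at least 3 of 5. Gene spans came from GENCODE M21 (GRCm38) for 32158 of the gene IDs. Other alternatives were thinning, another scaling, equal weight per nucleus, no minimum count, removal of the trend with gene span, and stricter numbers of set genes. The counting scripts were tested on simulated data with known fold changes. Tools were Python 3.11.15, numpy 2.4.6, scipy 1.17.1, pandas 2.3.3, scanpy 1.11.5 and matplotlib 3.10.9.

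The members and the gene lists were chosen with earlier results of these data known. The named genes were the genes of the rule, for each comparison the 10 per direction whose interval lay farthest from a ratio of 1 (unnamed gene models and mitochondrially encoded genes left out), the 15 per direction with the largest smallest ratio against early-set or Wt1 nuclei, and within each list up to 4 genes with the most UMIs and those at least 1.5-fold apart. Genes lower or higher in both pairs, and members with at least 4 set genes, were looked at after the values had been seen.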

Additional observations from a re-analysis of the deposited data

Results flagged for a closer look

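Of 324 list genes with at least 50 UMIs in each pair and 5 in every library, 11 (3.4%) lay at least 2-fold apart in opposite directions in the 2 pairs of libraries, against 198 of 7917 of all genes (2.50%). Each pair rests on 1 library per group, and the difference between the pairs was not tested.

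Matrix and adhesion genes were among them. Robo1, a receptor of SLIT ligands, had a log2 ratio of surgery over sham of −1.84 in the BAT pair (71.4 and 256 CPM in BAT surgery and BAT sham) and 2.14 in the BeAT pair (761 and 173 CPM in BeAT surgery and BeAT sham). Itga11, a collagen-binding integrin, had −1.21 in the BAT pair (24.8 and 57.2 CPM in BAT surgery and BAT sham) and stood at 95.1 and 47.5 CPM in BeAT surgery and BeAT sham. Icam1, an adhesion molecule, had −1.41 in the BAT pair and 1.22 in the BeAT pair. Dkk2 had −1.11 in the BAT pair and 1.76 in the BeAT pair, and the homeobox gene Hoxc6 −1.31 and 1.03. In the other direction, Adamts15, a protease of proteoglycans, had 1.19 in the BAT pair and −1.76 in the BeAT pair, and Tagln, a smooth muscle actin-binding gene, 1.82 and −1.18.

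Mt1, a metallothionein, had 1.96 in the BAT pair (219 and 56.1 CPM in BAT surgery and BAT sham) and −2.40 in the BeAT pair (31.7 and 168 CPM in BeAT surgery and BeAT sham). Glul, glutamine synthetase, had 1.66 and −2.09, the chemokine gene Ccl8 1.22 and −1.46, and mt-Nd3 2.19 and −1.08. The last, a short mitochondrial gene, stood beside a median mitochondrial share per member of 0.0721% in BeAT surgery and 0.345% in BeAT sham.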

How the results depend on the processing

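No paired analysis was possible because each group had 1 library and no test was run. Members with at least 4 set genes and members without a Ptprc UMI were alternatives chosen after the data had been seen. Of 30 share ratios under alternatives, 13 moved by less than counting error, and of 72 counts of genes 47 stayed within 1.5 times. Of 1365 list medians, 1203 moved by less than 0.58 on the log2 scale and 26 changed sign.

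Both surgery shares stayed below sham in every alternative run. The ratio of shares of kept nuclei was 0.107 in the BAT pair, and 0.0524 after thinning, 0.0546 with at least 3 set genes and 0.0305 with at least 4. In the BeAT pair it was 0.169, and 0.119, 0.115 and 0.130 in those settings, and between the shams 1.17, and 1.31, 1.30 and 1.56. Within the gate the BAT pair had 0.390, and 0.204, 0.199 and 0.111. The BeAT pair had 0.510, and 0.348 and 0.393 with at least 3 and 4 genes. The shams had 0.768, and 0.912 after thinning, 0.854 with at least 3 genes and, on the other side of 1, 1.03 with at least 4.

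Counts of genes at least 2-fold apart moved with several settings. With no minimum count they were 3006 higher and 1484 lower in the BAT pair, 2245 higher in the BeAT pair, 1176 and 1324 between the shams and 3125 and 1568 for BAT surgery over BeAT surgery. After thinning they were 319 and 556 in the BAT pair, 325 and 652 in the BeAT pair, 59 and 240 between the shams and 44 and 57 between the surgery libraries. With at least 4 set genes they were 476 and 1262 in the BeAT pair, 263 lower between the shams and 170 and 167 between the surgery libraries. The surgery libraries had 377 and 225 with at least 3 set genes and 360 and 231 without Ptprc, against 739 and 436 in all members. Taking off the span trend left 226 lower between the shams, against 573.

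Medians that changed sign were these. In the BAT pair, collagen VI and related genes were −0.33 with at least 3 set genes, −0.07 thinned and −0.26 with at least 4. In the BeAT pair, lymph node stroma (2.63) was −1.31 with at least 3 set genes, posterior Hox 0.05 thinned, immediate early genes 0.26 with the span trend off, and stromal chemokines (−0.67) 0.01 thinned and 0.18 with the trend off. Between the surgery libraries, posterior Hox (0.89) was −0.28 without doublets, −1.14 with at least 3 set genes, −0.94 with the trend off and −1.75 with at least 4. Anterior Hox (0.71) was −0.70, −0.32 and −0.89 with at least 3 genes, the trend off and at least 4. Lymph node stroma (−3.00) was 1.98 with at least 3 genes and 2.13 thinned, lymphocyte genes (−3.03) 4.02 thinned and 2.04 with at least 4, and elastic fibre genes (0.62) −0.10 thinned and −0.40 with at least 4. The early set (−0.90) was 0.15 with no minimum, the cell cycle (−0.75) 0.41 without doublets, Schwann genes (−0.59) 0.82 thinned, proteoglycans (0.72) −0.35 and mitochondrial genes (0.98) −0.85 with the trend off. Of named genes, Pcdh15 was −0.08 and Csmd1 −1.11 in the BeAT pair with at least 4 set genes, and Cxcl10 was 0.24 and Ccl2 1.22 between the shams with at least 3. The cause of these changes was not tested.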

Other observations

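Of the growth factor and vessel genes, Igf1 was higher in both surgery libraries and Igfbp6 and Angptl4 were lower. Igf1, a growth factor of stroma, had 692 and 128 CPM in BAT surgery and BAT sham, and 239 and 139 CPM in BeAT surgery and BeAT sham. In members with at least 4 set genes it had 911 and 88.7 CPM in BAT surgery and BAT sham, and 149 and 110.1 CPM in BeAT surgery and BeAT sham. Igfbp6, a binding protein of IGF-II, lay on the low side in both pairs, with 60.5 and 181 CPM in BAT surgery and BAT sham, and 14.8 and 206 CPM in BeAT surgery and BeAT sham. Angptl4, an inhibitor of lipoprotein lipase, had 4.65 and 93.6 CPM in BAT surgery and BAT sham, and 23.2 and 127 CPM in BeAT surgery and BeAT sham. Angiogenic genes had medians of −0.99 in the BAT pair, with 2 higher and 6 lower of 11, and −0.36 in the BeAT pair, with 1 higher and 5 lower of 11. With at least 4 set genes those medians were −0.77 and −0.06.

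Clock genes had medians of −0.32 in the BAT pair and −0.29 in the BeAT pair, and of −0.59 and −0.01 with at least 4 set genes. Arntl, which encodes the activator BMAL1, had 26.4 and 8.65 CPM in BAT surgery and BAT sham, and 40.2 and 7.56 CPM in BeAT surgery and BeAT sham. Dbp, an output gene of the clock, had 18.6 and 64.8 CPM in BAT surgery and BAT sham, and 19.0 and 92.3 CPM in BeAT surgery and BeAT sham. Nr1d1, a repressor of Arntl, had 14.0 and 48.6 CPM in BAT surgery and BAT sham, and 8.45 and 65.2 CPM in BeAT surgery and BeAT sham. The hour of collection is not in the labels used here. Among axon guidance genes, Slit3 had 3027 and 4928 CPM in BAT surgery and BAT sham, and 2473 and 3502 CPM in BeAT surgery and BeAT sham, and Sema3c 237 and 60.1 CPM, and 57.1 and 29.3 CPM, in the same libraries. Sema3c was a gene of early-set nuclei, at 498 and 1172 CPM in BAT surgery and BAT sham and 647 and 704 CPM in BeAT surgery and BeAT sham.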
